A study of Rattus norvegicus with 12 samples.

Results

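Ribosome biogenesis and nucleolar genes were followed through the first day of rat liver regeneration in whole-liver RNA sequencing, over all 12 columns of the deposited expression table. The set was defined as 52 gene symbols of known role. The rule that lists them uses no measured value, but they were chosen with earlier results of these data known. By symbol, 36 of the 52 were found among the 14692 genes listed. All 36 had a mean of at least 1 RPKM (reads per kilobase of transcript, scaled to the size of the library) and so were among the 8459 genes past that filter. A further 7 were listed under older symbols (RPO1-3 for POLR1D, NOL5A for NOP56, NOL5 for NOP58, NOLA1 for GAR1, NOLA2 for NHP2, NOLA3 for NOP10 and NOL14 for NOP14) and are given separately. The remaining 9 (DKC1, UTP20, HEATR1, BYSL, TSR1, RRP12, PES1, NOP2 and RRP1B) were not analysed here.

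Livers came from male Sprague Dawley rats, 4 to 5 months old, at 0, 4, 12 and 24 h after partial hepatectomy (PH), which was done 24 h after a first operation. That operation was a biliary fistula, which drains bile to the outside, or a sham fistula in the samples titled Cont, and every rat also received a duodenal catheter for fluids. In one of the fistula groups sodium taurocholate, a bile acid, was infused into the duodenum. The titles and the descriptions of these groups disagree: samples titled BF are described as fistula with bile acid infusion and samples titled BA as fistula without bile, whereas the study uses BF for fistula and BA for bile acids. The groups are therefore called by their title prefix, Cont, BF and BA, and no sample was moved to another group from its values. CYP7A1, the rate-limiting enzyme of bile acid synthesis, which returning bile acids are known to repress, was highest in BF at each of the 4 times (387 RPKM at 0 h, against 60.0 in Cont and 54.9 in BA). PCNA, a replication marker, was lowest in BF at 24 h (75.2 RPKM, against 381 in Cont and 353 in BA). Of the other replication markers tested, MCM2, MCM5, MCM6, MCM7 and CCNA2 were also lowest in BF at 24 h. RRM2 and TYMS were lowest in BA (2.62 and 26.6 RPKM, against 5.69 and 33.4 in BF). CYP7A1 and the replication markers other than PCNA were named after their values were seen.

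Ribosomes are assembled in the nucleolus. RNA polymerase I transcribes the precursor of the large ribosomal RNAs, small nucleolar ribonucleoproteins guide its chemical modification and first cuts, and separate sets of assembly factors then carry the precursors of the small and the large subunit towards the cytoplasm. Remnant hepatocytes enlarge and make ribosomes before they replicate DNA, and the Myc protein is a known activator of many of these genes.

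Each column is the authors' average of 2 sequencing runs, 1 on a single rat and 1 on the combined RNA of 3 rats, so no spread between rats can be had from the table and every value below is a mean without an error. The column sums lay between 727435 and 982826 RPKM. The BA column at 4 h stood apart because ALB, serum albumin, held 30.9% of it (303637 RPKM, against 41049 to 99928 RPKM in the other 11 columns). In the BF column at 12 h, pancreatic acinar enzyme genes summed to 130 RPKM (CTRB1 84.7), against 5.10 to 23.0 RPKM elsewhere. Hepatocyte markers were abundant throughout, summing to at least 107748 RPKM in every column. Being whole tissue, fewer cells of a type and less RNA per cell cannot be told apart. ALB and CTRB1 were named after their values were seen.

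At 4 h, the members were higher together in all 3 prefixes. With the 3 prefixes as the 3 values per time (limma on log2(RPKM + 1), prefix as a block, 6 residual degrees of freedom, Benjamini-Hochberg over 8459 genes, threshold 0.05), 33 of the 36 members rose from 0 to 4 h and 0 fell. Of all genes tested, 12.9% were called higher and 32.4% lower. The median difference of the members was 0.94 on the log2(RPKM + 1) scale (range 0.16 to 1.65), against -0.20 over all genes. In 34 of the 36 members all 3 columns at 4 h lay above all 3 columns at 0 h, a pattern seen in 13.6% of all genes. The 3 members that were not called were TBL3, DDX56 and GNL3L. With the 7 genes under older symbols added, 39 of 43 rose. Without the BF columns 24 of the 36 were called (600 of 8469 over all genes), and without the BA column at 4 h 31 were (889 of 8478 over all genes). Of 4 neutrophil markers, S100A8 and S100A9, the 2 that passed the filter, both rose in the same window (median 1.71). The list summed to 3.11 to 22.8 RPKM at 0 h and 39.1 to 55.3 RPKM at 4 h. MPO and CSF3R did not pass the filter, and MPO was at most 0.07 RPKM. CSF3R was higher at 4 h than at 0 h in Cont (0.57 against 0.22 RPKM). It was lower at 4 h in BF (0.39 against 0.70 RPKM) and BA (0.27 against 0.53 RPKM). The part of neutrophils in the result was not tested.

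**Figure D1:**
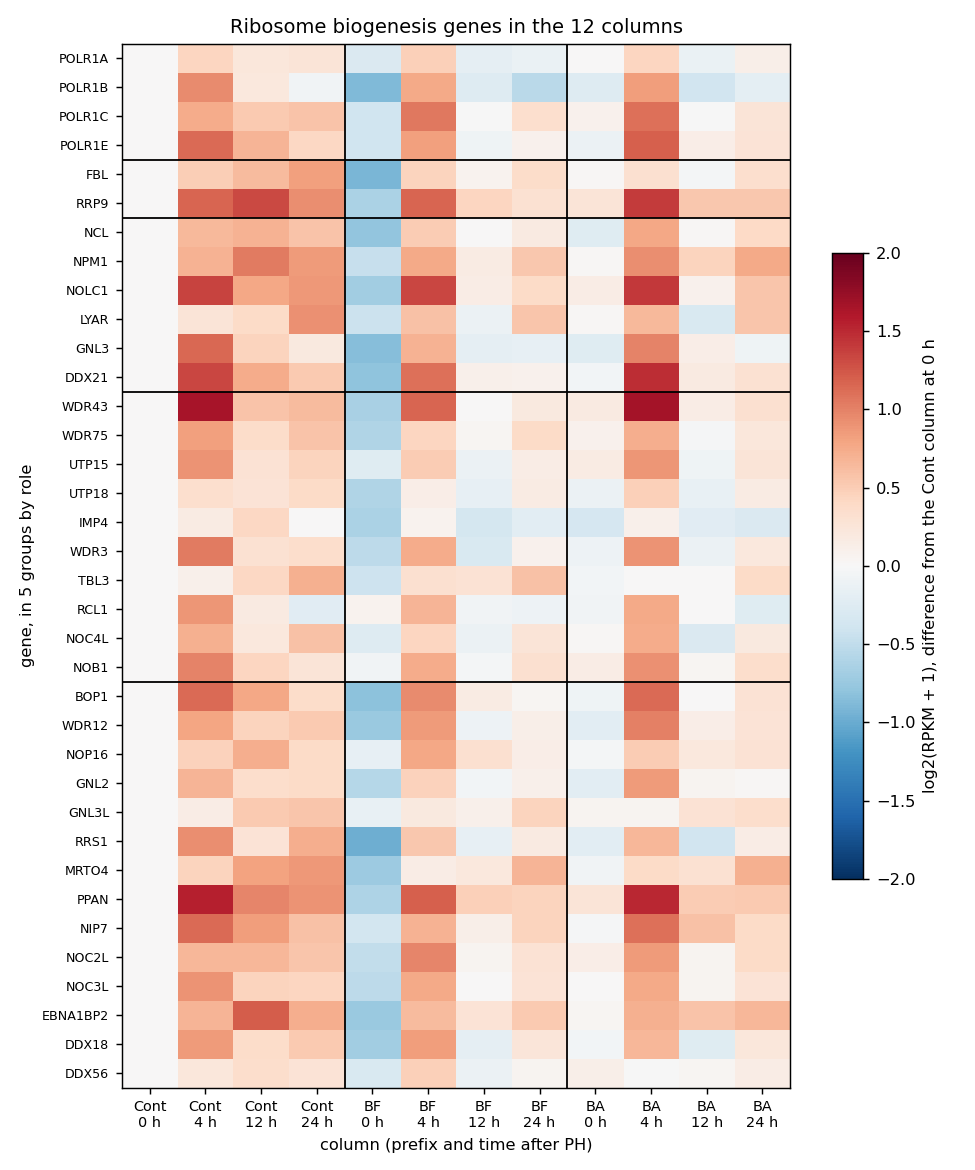
Each of the 36 members (rows, grouped by role) in each of the 12 columns (prefix and hours after PH), coloured by the difference in log2(RPKM + 1) from the gene's Cont value at 0 h, red higher and blue lower. The 4 h columns are red in most rows of all 3 prefixes, and the BF column at 0 h is blue in all rows but RCL1.

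All 4 measured subunits of RNA polymerase I rose at 4 h, with a median of 1.15. POLR1B, the second largest subunit, read 8.62, 17.6, 10.1 and 8.17 RPKM at 0, 4, 12 and 24 h in Cont. It read 4.24, 15.3, 7.08 and 5.60 RPKM in BF, and 7.04, 16.1, 6.35 and 7.43 RPKM in BA. The 4 h value was the highest of each series, and every 4 h value exceeded every value at any other time. The difference between 4 and 0 h was 1.22 (SE 0.15, limma adjusted p = 0.000589), and POLR1B had returned by 24 h to a level not distinguished from 0 h (difference 0.11, limma adjusted p = 0.60). POLR1E, the PAF53 subunit, read 2.89 to 4.10 RPKM at 0 h and 7.99 to 10.7 RPKM at 4 h (difference 1.22, SE 0.12, limma adjusted p = 0.000331). POLR1C, which RNA polymerases I and III share, read 11.8 to 16.8 RPKM at 0 h and 27.2 to 35.1 RPKM at 4 h (difference 1.07, SE 0.18, limma adjusted p = 0.0019). POLR1A, the largest subunit, which holds part of the catalytic site, had the smallest difference of the 4, from 5.43 to 6.87 RPKM at 0 h to 9.51 to 9.85 RPKM at 4 h (0.53, SE 0.12, limma adjusted p = 0.0057). Without the BF columns POLR1A was no longer called.

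The 2 box C/D proteins found by symbol rose as well, with unlike courses afterwards. FBL, fibrillarin, the methyltransferase that modifies ribosomal RNA, read 25.4, 35.95, 39.9 and 45.3 RPKM at 0, 4, 12 and 24 h in Cont. In BF it read 13.0, 35.0, 26.6 and 33.1 RPKM, and in BA 25.9, 31.8, 24.6 and 32.1 RPKM. Thus in Cont FBL was highest at 24 h, and the BF column at 0 h was far below the other 2 (difference between 4 and 0 h 0.71, SE 0.20, limma adjusted p = 0.020). The FBL call was lost without the BF columns and also without the Cont columns. RRP9, the U3 particle protein that takes part in the early cuts, read 7.10, 17.2, 19.2 and 14.5 RPKM in Cont, 4.25, 17.2, 9.88 and 9.0 RPKM in BF, and 8.67, 20.4, 10.8 and 10.8 RPKM in BA. Its 4 h values were each at least 2-fold above the 0 h value of the same prefix on the linear scale (difference 1.37, SE 0.21, limma adjusted p = 0.0012). The core box C/D proteins under older symbols had larger differences than any of the 36 members: NOL5 (NOP58) read 11.8 to 25.1 RPKM at 0 h and 54.5 to 63.2 RPKM at 4 h (1.78, SE 0.23, limma adjusted p = 0.000696), and NOL5A (NOP56) 6.29 to 19.1 RPKM and 36.3 to 41.2 RPKM (1.68, SE 0.29, limma adjusted p = 0.0022). No box H/ACA protein, the class that guides pseudouridylation, was found by its current symbol. Of the 3 under older symbols NOLA1 (GAR1) and NOLA2 (NHP2) were called at 4 h, and NOLA3 (NOP10) was not (0.021, SE 0.087, limma adjusted p = 0.86). NOLA2 was highest at 24 h in every prefix, at 90.4 to 106 RPKM against 16.9 to 31.4 RPKM at 0 h. The older-symbol genes were described after their values were seen.

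All 6 nucleolar organisers rose, with a median of 1.15. DDX21, an RNA helicase that couples RNA polymerase I transcription to processing, read 5.49, 15.4, 9.84 and 8.36 RPKM at 0, 4, 12 and 24 h in Cont. In BF it read 2.72, 13.0, 5.98 and 5.90 RPKM, and in BA 5.24, 17.1, 6.36 and 7.01 RPKM. The 3 values at 4 h stood above all 9 others (difference from 0 h 1.59, SE 0.15, limma adjusted p = 0.000267). NOLC1, the Nopp140 chaperone of small nucleolar particles, read 13.9, 36.9, 24.5 and 26.1 RPKM in Cont, 8.15, 36.4, 15.4 and 18.4 RPKM in BF, and 15.5, 38.6, 14.8 and 20.9 RPKM in BA. The 4 h levels of NOLC1 were close to one another although the 0 h level of BF was the lowest (difference 1.55, SE 0.19, limma adjusted p = 0.000549). GNL3, nucleostemin, read 50.1, 112, 68.7 and 57.2 RPKM in Cont, 27.3, 81.7, 43.9 and 44.6 RPKM in BF, and 42.1, 101, 55.2 and 47.0 RPKM in BA, with BF the lowest of the 3 at each time (4 h against 0 h 1.31, SE 0.12, limma adjusted p = 0.000258).

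NCL, nucleolin, one of the most abundant nucleolar proteins, read 65.4, 104, 106 and 97.7 RPKM in Cont, 37.4, 93.7, 65.9 and 74.2 RPKM in BF, and 55.1, 112, 66.2 and 86.9 RPKM in BA. Cont thus held its 4 h level of NCL while BF and BA read lower at 12 h (4 h against 0 h 0.99, SE 0.16, limma adjusted p = 0.0014). NPM1, nucleophosmin, the chaperone of the outer nucleolus, read 51.6, 84.2, 107 and 94.2 RPKM in Cont, 37.2, 87.7, 57.8 and 75.4 RPKM in BF, and 52.4, 99.0, 70.2 and 87.5 RPKM in BA (4 h against 0 h 0.94, SE 0.17, limma adjusted p = 0.0024). NPM1 has near-identical processed copies in the genome, so its level is uncertain. LYAR, a zinc finger protein of the nucleolus, had the smallest difference of the class, from 5.90 to 8.47 RPKM at 0 h to 10.04 to 13.5 RPKM at 4 h (0.63, SE 0.19, limma adjusted p = 0.027), and lost its call without the BF columns, without the BA columns and without the BA column at 4 h.

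Of the 10 small subunit factors 9 rose at 4 h, with a median of 0.78. WDR43, the UTP5 homologue of the U3-associated complex, had the largest difference of all 36 members. It read 9.85, 32.9, 15.1 and 15.9 RPKM at 0, 4, 12 and 24 h in Cont, 5.91, 23.3, 9.86 and 11.5 RPKM in BF, and 11.3, 33.5, 11.1 and 12.6 RPKM in BA. Every 4 h value of WDR43 was above all values at the other times (1.65, SE 0.14, limma adjusted p = 0.000217). WDR3, the UTP12 homologue, read 7.89 to 11.7 RPKM at 0 h and 20.3 to 25.3 RPKM at 4 h (1.10, SE 0.10, limma adjusted p = 0.000267). RCL1, a factor of the small subunit, was the most abundant member in every column, at 170 to 187 RPKM at 0 h and 286 to 329 RPKM at 4 h. RCL1 was named after its values were seen. TBL3, the UTP13 homologue, followed another course, reading 11.0, 11.9, 15.0 and 18.7 RPKM in Cont, 7.99, 14.0, 13.6 and 17.0 RPKM in BF, and 10.6, 11.1, 11.1 and 14.7 RPKM in BA. It was highest at 24 h in all 3 prefixes, with a difference of 0.30 at 4 h (SE 0.14, limma adjusted p = 0.11) and of 0.72 at 24 h (limma adjusted p = 0.0053).

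Of the 14 large subunit factors 12 rose at 4 h, with a median of 0.96. PPAN, the SSF1 homologue, read 11.7, 36.5, 23.9 and 22.7 RPKM at 0, 4, 12 and 24 h in Cont, 7.30, 28.2, 16.7 and 16.4 RPKM in BF, and 14.2, 35.2, 17.1 and 17.3 RPKM in BA. In all 3 prefixes the 12 and 24 h values of PPAN lay between those at 0 and 4 h (1.54, SE 0.16, limma adjusted p = 0.000341). BOP1, of the complex with PES1 and WDR12, read 16.5, 37.2, 28.9 and 21.6 RPKM in Cont, 8.91, 32.7, 18.5 and 17.0 RPKM in BF, and 15.5, 37.3, 16.6 and 20.4 RPKM in BA (1.37, SE 0.18, limma adjusted p = 0.000629). Its partner WDR12 read 5.91 to 10.5 RPKM at 0 h and 18.8 to 22.1 RPKM at 4 h (1.20, SE 0.14, limma adjusted p = 0.000541) and was named after its values were seen. NIP7 (1.11), RRS1 (1.11), DDX18 (1.04), NOC2L (0.94), GNL2 (0.92) and NOP16 (0.65), which act in large subunit assembly, all rose, and of these NOC2L and NOP16 were not called without the BF columns.

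The 2 large subunit members that were not called were GNL3L and DDX56. GNL3L, the nucleostemin-like GTPase, read 15.99, 17.9, 23.4 and 23.9 RPKM at 0, 4, 12 and 24 h in Cont, 14.3, 18.4, 17.3 and 22.1 RPKM in BF, and 16.7, 16.7, 19.9 and 20.6 RPKM in BA. It was highest at 24 h in all 3 prefixes (4 h against 0 h 0.16, SE 0.11, limma adjusted p = 0.25; 24 h against 0 h 0.48, limma adjusted p = 0.010). DDX56, a nucleolar helicase, read 12.3, 14.6, 16.1 and 15.0 RPKM in Cont, 9.82, 17.5, 11.3 and 12.9 RPKM in BF, and 13.5, 12.3, 12.7 and 13.8 RPKM in BA. Only in BF was the DDX56 value at 4 h the highest of its series, and the difference was 0.29 (SE 0.16, limma adjusted p = 0.17). When the columns were rescaled on their median gene, TBL3, GNL3L and DDX56 passed the threshold at 4 h too, so that all 36 members were called.

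**Figure D2:**
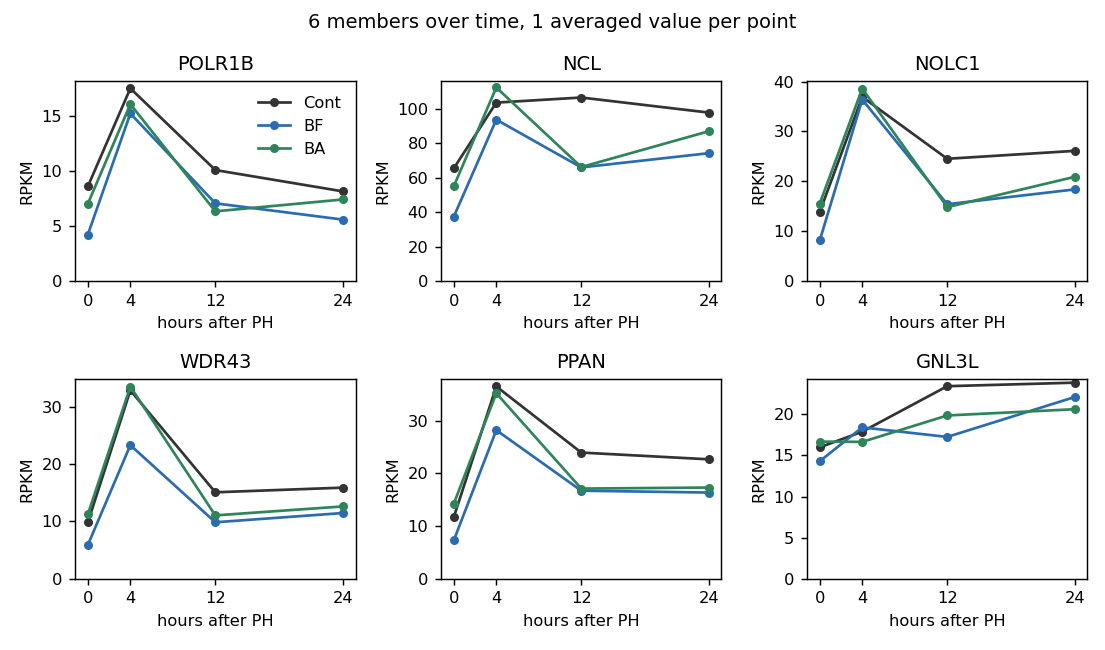
RPKM of POLR1B, NCL, NOLC1, WDR43, PPAN and GNL3L against hours after PH, with 1 line per prefix and 1 averaged value per point, without error bars since no spread can be had from the table. The first 5 are higher at 4 h than at 0 h in every prefix, while GNL3L is highest at 24 h in every prefix.

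The sequences in front of these genes were read because the members moved together at 4 h. For 31 of the 36 members RefSeq (GRCr8) gave a promoter, taken here as the 250 bases before the transcription start. The E-box CACGTG, the sequence that Myc with Max is known to bind, was searched on both strands (it is its own reverse complement) and lay in 5 of the 31 (16.1%), against 8.34% of the promoters of genes past the filter and 5.79% of all 27457 promoters. The ETS-type sequence CCGGAAG or its reverse complement CTTCCGG lay in 13 of the 31 (41.9%), against 15.98% and 7.74%. The 2 motifs do not overlap each other. The median GC content was 60.4% in the members and 60.0% in the genes past the filter. A match is a description of these letters and not of binding, which was not measured.

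Shown first are 3 of the 5 promoters with CACGTG, those of the nucleolar GTPase Gnl3 (chr16:6219783-6220032, minus strand), the helicase Ddx18 (chr13:35295973-35296222, minus strand) and the small subunit factor Wdr75 (chr9:55394982-55395231, plus strand). The other two belong to Lyar and Utp18. Shown next are 3 with the ETS-type sequence in front of genes that rose by more than 1 on the log2 scale, those of Ddx21 (chr20:31097239-31097488, minus strand), Nolc1 (chr1:254870109-254870358, plus strand) and Polr1e (chr5:64074873-64075122, plus strand). Each is written 5′ to 3′ on the strand of its gene and ends at the base before the start, and the capitals mark the motif.
Gnl3: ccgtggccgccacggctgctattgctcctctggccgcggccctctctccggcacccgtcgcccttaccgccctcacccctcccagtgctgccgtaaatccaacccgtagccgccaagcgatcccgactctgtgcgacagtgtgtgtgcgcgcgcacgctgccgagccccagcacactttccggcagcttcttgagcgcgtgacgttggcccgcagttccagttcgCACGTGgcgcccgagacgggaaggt
Ddx18: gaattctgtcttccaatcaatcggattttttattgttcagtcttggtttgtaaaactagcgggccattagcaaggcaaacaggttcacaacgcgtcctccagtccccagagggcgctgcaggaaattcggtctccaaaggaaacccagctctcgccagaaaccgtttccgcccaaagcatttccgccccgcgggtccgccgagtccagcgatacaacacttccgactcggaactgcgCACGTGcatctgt
Wdr75: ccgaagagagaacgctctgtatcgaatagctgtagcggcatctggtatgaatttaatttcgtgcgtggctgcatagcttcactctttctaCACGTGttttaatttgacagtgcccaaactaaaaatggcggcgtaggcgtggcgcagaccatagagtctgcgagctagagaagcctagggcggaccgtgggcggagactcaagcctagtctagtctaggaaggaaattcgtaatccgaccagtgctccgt
Ddx21: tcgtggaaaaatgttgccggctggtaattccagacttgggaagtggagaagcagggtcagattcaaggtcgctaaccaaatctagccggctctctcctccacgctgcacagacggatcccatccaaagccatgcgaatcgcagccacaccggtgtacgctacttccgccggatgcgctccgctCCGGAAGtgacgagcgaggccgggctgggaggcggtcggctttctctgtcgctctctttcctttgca
Nolc1: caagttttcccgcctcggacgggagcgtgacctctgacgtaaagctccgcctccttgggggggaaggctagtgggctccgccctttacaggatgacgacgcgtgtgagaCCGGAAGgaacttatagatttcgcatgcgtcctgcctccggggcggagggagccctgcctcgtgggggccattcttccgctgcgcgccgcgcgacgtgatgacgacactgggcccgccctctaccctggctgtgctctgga
Polr1e: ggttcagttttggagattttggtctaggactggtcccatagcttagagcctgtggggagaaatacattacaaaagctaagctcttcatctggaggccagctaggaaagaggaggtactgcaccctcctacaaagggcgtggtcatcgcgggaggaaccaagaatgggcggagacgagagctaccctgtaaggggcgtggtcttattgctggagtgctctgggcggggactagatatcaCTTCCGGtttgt

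The CACGTG began 25 bases before the start in Gnl3, 13 in Ddx18 and 160 in Wdr75. All 3 genes rose at 4 h, Wdr75 from 6.27 to 10.7 RPKM at 0 h to 13.9 to 18.6 RPKM at 4 h (WDR75 difference 0.83, SE 0.15, limma adjusted p = 0.0026). The ETS-type sequence also stood in front of Gnl3l and Ddx56, which were not called at 4 h.

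After 4 h the members came down. From 4 to 12 h 22 of 36 fell and 0 rose, with a median of -0.60 against 0.062 over all genes, where 12% of all genes were called lower and 13.9% higher (limma, Benjamini-Hochberg). The RNA polymerase I subunits fell in 4 of 4 and the small subunit factors in 7 of 10, while 0 of 2 box C/D proteins did. The largest falls were those of WDR43 (-1.25), NOLC1 (-1.03), POLR1B (-0.99) and DDX21 (-0.97). At 12 h 15 of 36 were still above 0 h (median 0.38 against -0.12 over all genes, 9.03% of which were called higher), and by class these were 9 of 14 large subunit factors, 4 of 6 organisers and 0 of 10 small subunit factors. EBNA1BP2 (0.91) and RRP9 (0.89) were the highest of them. EBNA1BP2, a large subunit factor, was named after its values were seen. The fall from 4 to 12 h was called in 13 members without the BF columns and in 4 without the BA columns. Calls over all genes dropped too, to 464 of 8469 without the BF columns and 145 of 8488 without the BA columns, from 1014 of 8459. The 12 h count was 2 without the BF columns (257 of 8469 over all genes). It was 0 without the Cont columns (151 of 8431 over all genes).

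At 24 h 26 of 36 were above 0 h, with a median of 0.53, but 30.6% of all genes were called higher too and their median was 0.21. When the columns were rescaled on their median gene, 2 of the 36 were higher and 1 was lower, whereas at 4 h rescaling left all 36 called. Of the 8459 genes, 874 were called higher at 24 h after rescaling and 1531 at 4 h. Without the Cont columns 6 were called at 24 h (725 of 8431 over all genes), and without the BF columns 1 was (625 of 8469 over all genes). From 12 to 24 h LYAR (0.68) and NOC4L (0.41), a small subunit factor, rose, against a median of 0.33 over all genes and 43.6% called higher. After rescaling 0 members were called higher and 6 lower, where 632 of 8459 genes were called higher. The shares of all genes called lower after rescaling were not counted. MRTO4, a large subunit factor named after its values were seen, had the largest difference between 24 and 0 h (1.02, SE 0.14, limma adjusted p = 0.0011) and was highest at 24 h in all 3 prefixes, as were TBL3 and GNL3L.

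The time of the highest value was 4 h for 23 members in Cont, 32 in BF and 31 in BA, against 13.2%, 15.7% and 16.9% of all genes. In 23 of the 36 members it was 4 h in all 3 prefixes, which 6.8% of all genes showed. In Cont, 7 members were highest at 12 h (RRP9, NCL, NPM1, IMP4, NOP16, EBNA1BP2 and DDX56) and 6 at 24 h, FBL, LYAR and UTP18 among them, against 8.94% and 52.6% of all genes. No member was highest at 0 h in any prefix, where 25% of all genes were in Cont, 22.8% in BF and 22.9% in BA.

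Within each prefix the 4 h difference rests on 1 averaged column per time, so these are values without a test. The median difference from 0 h was 0.81 in Cont, 1.24 in BF and 0.80 in BA, and the medians over all genes were -0.19, -0.072 and -0.32. After rescaling on the median gene the members' medians were 0.92, 1.26 and 1.06. Members at least 2-fold higher on the log2(RPKM + 1) scale numbered 10 in Cont, 24 in BF and 15 in BA, where 4.01%, 5.13% and 4.61% of all genes were. In BF the 6 organisers were all at least 2-fold higher, among them NOLC1 (2.03) and DDX21 (1.91). At 12 h the members' median difference from 0 h was 0.45 in Cont, 0.54 in BF and 0.055 in BA. At 24 h it was 0.54, 0.80 and 0.29.

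**Figure D3:**
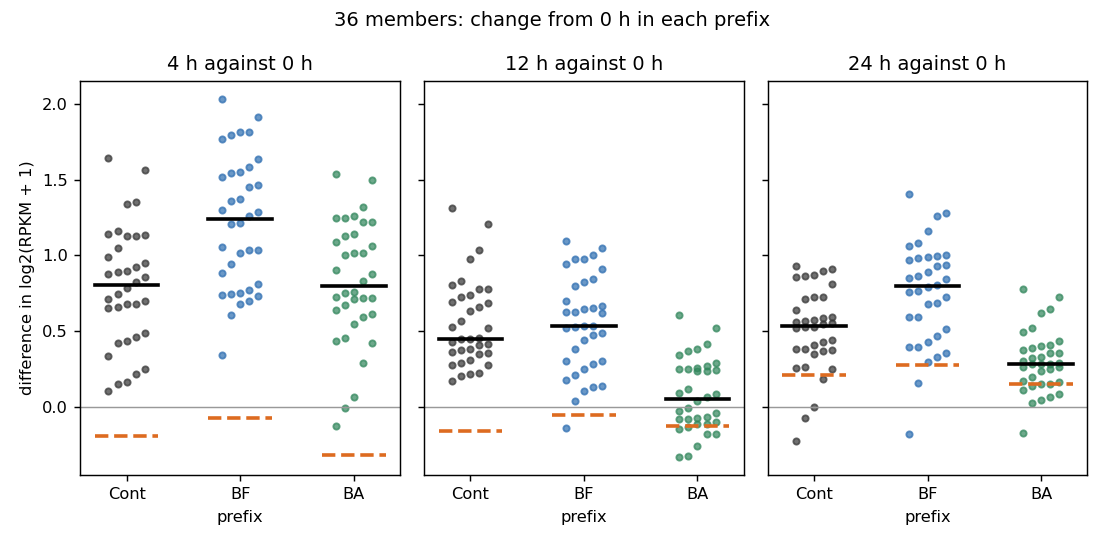
Difference in log2(RPKM + 1) from 0 h at 4, 12 and 24 h for each of the 36 members (points) in each prefix, with black bars at the members' median and dashed orange lines at the median of the 8459 genes past the filter. At 4 h the members' medians are 0.81 in Cont, 1.24 in BF and 0.80 in BA, all above the dashed lines, and at 12 h the BA median is 0.055.

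The members were lower in BF than in both other prefixes before PH, and lower in BF and BA than in Cont at 12 h. Averaged over the 4 times, all 36 members were lower in BF than in Cont, with a median of -0.40 against -0.11 over all genes. The test called 1 of them, GNL3 (-0.57, SE 0.10, limma adjusted p = 0.049), where 0.485% of all genes were called lower, and 27 of the 36 had an unadjusted p under 0.05. The GNL3 call did not survive another pseudocount, no filter, rescaling, the fit without time or any left-out time. In BA against Cont all 36 were lower with a median of -0.17, close to the -0.14 over all genes, 0 were called by limma (4 at an unadjusted p under 0.05), and 0.0709% of all genes were called lower. After rescaling, the members' median in BA was above that in Cont at 0 and 4 h (0.081 and 0.22). In BF against BA 33 of 36 were lower with a median of -0.20, 0 were called (7 at an unadjusted p under 0.05), and 0% of all genes were called lower. For these comparisons the shares of all genes that were lower in sign, or had an unadjusted p under 0.05, were not counted. The members' counts of those kinds therefore have no background beside them. The Cont columns are shared by the first 2 comparisons, the BF columns by BF against Cont and BF against BA.

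By time, without a test, BF was the lowest of the 3 prefixes at 0 h in 35 of 36 members, the exception being RCL1, where 52.7% of all genes had BF lowest. The median difference of BF from Cont at 0 h was -0.59 (-0.18 over all genes), and that of BF from BA was -0.50 (-0.076 over all genes). RRS1 (-0.98), FBL (-0.91) and POLR1B (-0.88) differed most from Cont. Of the 36 members 0 were 2-fold lower on this scale in either comparison, where 2.16% and 1.39% of all genes were. Of the 7 genes under older symbols 2 were in BF against BA, NOL5A (6.29 against 19.1 RPKM, -1.46) and NOL5 (11.8 against 25.1 RPKM, -1.03). Between BA and Cont at 0 h the median was -0.0094, with 18 members higher and 18 lower (64.7% of all genes were lower). The BF column at 0 h enters both this difference and the 4 h difference within BF. Neutrophil markers summed to 3.11 RPKM in Cont at 0 h and to at least 22.4 RPKM in BF and BA, and their part in the result was not tested.

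At 4 h the median difference of BF from Cont was -0.16 (-0.067 over all genes), that of BA from Cont -0.0049 (-0.22 over all genes) and that of BF from BA -0.15 (0.15 over all genes). After rescaling these medians were -0.061, 0.22 and -0.29, so the median of BA against Cont changed sign. BF was the lowest of the 3 prefixes at 4 h in 22 of the 36 members, where 24.5% of all genes had BF lowest. BF was below Cont for WDR43 (-0.48), GNL3 (-0.45) and NIP7 (-0.44), and above it for LYAR (0.34), NOC2L (0.32) and NOP16 (0.31). BA was below Cont for RRS1 (-0.26), DDX56 (-0.23) and DDX18 (-0.19) and above it for LYAR (0.39), POLR1C (0.35) and RRP9 (0.23). BF was below BA for WDR43 (-0.51), NIP7 (-0.41) and GNL2 (-0.39), and above it for DDX56 (0.48), TBL3 (0.31) and NOP16 (0.26).

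At 12 h Cont was the highest of the 3 prefixes in all 36 members, where 45.9% of all genes had Cont highest. The median difference from Cont was -0.55 in BF and -0.50 in BA, against -0.069 and -0.057 over all genes, and between BF and BA it was -0.037. In RRP9 the difference from Cont was -0.89 in BF and -0.77 in BA. The BF column at 12 h is the one in which pancreatic acinar genes summed to 130 RPKM, and the part of this in the BF values was not tested. At 24 h Cont was highest in 34 of 36 members (62.8% of all genes), with medians of -0.29 in BF and -0.21 in BA, which after rescaling were -0.15 and -0.032.

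**Figure D4:**
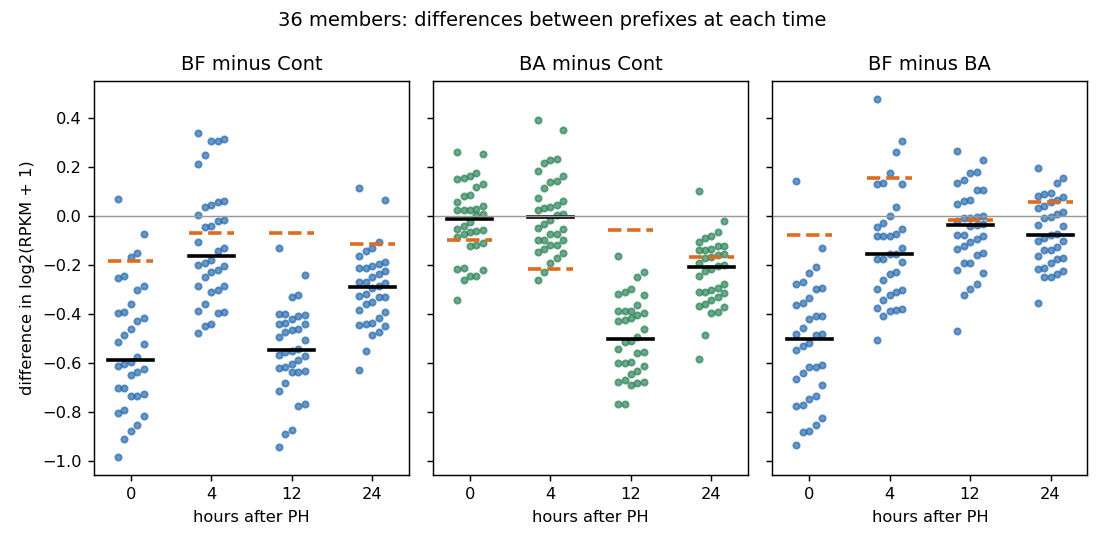
Difference in log2(RPKM + 1) between prefixes at each time for each of the 36 members (points), with black bars at the members' median and dashed orange lines at the median of the 8459 genes past the filter. BF lies below Cont and BA at 0 h (medians -0.59 and -0.50), and both fistula prefixes lie below Cont at 12 h (-0.55 and -0.50).

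Other genes of the pathway, from a list written with earlier results of these data known, moved in the same time window. Of 93 further ribosome biogenesis genes 59 were tested, of which 44 rose and 2 fell at 4 h, with a median of 0.63. Over all genes 12.9% were called higher and 32.4% lower at 4 h. From 4 to 12 h 36 of the 59 fell, where 12% of all genes were called lower. PAK1IP1 (1.78), RRP15 (1.32) and FTSJ3 (1.32), all large subunit factors, differed most. The lowest were subunits of the RNA exosome, which trims and degrades RNA: EXOSC4 (-0.60, limma adjusted p = 0.0052) and EXOSC9 (-0.36, limma adjusted p = 0.040) fell, and EXOSC5 (-0.42, limma adjusted p = 0.051) missed the threshold, where the median over all genes was -0.20. Exosome subunits did not move as one, since EXOSC2 (0.63) and EXOSC7 (0.33), named after their values were seen, rose.

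Among the regulators of RNA polymerase I 8 of 9 were tested, of which 7 rose and 1 fell at 4 h. In the same comparison 12.9% of all genes were called higher and 32.4% lower. MYC read 3.63, 27.4, 13.2 and 7.20 RPKM at 0, 4, 12 and 24 h in Cont, 6.76, 17.3, 9.68 and 8.27 RPKM in BF, and 5.94, 19.0, 4.85 and 10.8 RPKM in BA. Its 4 h values were the highest of each series (1.79, SE 0.33, limma adjusted p = 0.0029). RRN3, which recruits RNA polymerase I to its promoter, rose by 0.56 (SE 0.097, limma adjusted p = 0.0022). UBTF, which binds along the ribosomal RNA genes, was the 1 regulator that fell, from 19.9 to 23.2 RPKM at 0 h to 13.4 to 15.6 RPKM at 4 h (-0.50 against -0.20 over all genes, SE 0.11, limma adjusted p = 0.0065).

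The ribosomal proteins themselves, a list of 54 genes written after the members' values were seen, followed another course. At 4 h 3 of them rose, with a median of 0.12 (12.9% of all genes were called higher), and 40 rose from 4 to 12 h (13.9% of all genes). At 12 h 44 were above 0 h, with a median of 0.68 (9.03% of all genes, median -0.12), and at 24 h 47 were, with a median of 0.75 (30.6% of all genes, median 0.21). Many have near-identical processed copies in the genome, so their levels are uncertain.

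In the fit over the 3 prefixes, markers of DNA replication were called later. Of 8 S phase markers tested 0 were called at 4 h by limma (1 at an unadjusted p under 0.05) and 0 at 12 h (median 0.13). All 8 rose at 24 h, with a median of 3.23, where 30.6% of all genes were called higher (median 0.21). PCNA, the replication clamp, read 20.3 to 27.3 RPKM at 0 h and 27.5 to 32.9 RPKM at 4 h. At 24 h it read 381 RPKM in Cont, 75.2 in BF and 353 in BA (24 h against 0 h 3.20, SE 0.45, limma adjusted p = 0.0013). Not all markers were lowest in BF at 24 h, since RRM2 and TYMS were lowest in BA. In the BF columns MCM2, MCM6 and MCM7 read 2.57, 0.62 and 4.72 RPKM at 0 h and 7.17, 5.41 and 12.6 RPKM at 12 h. In Cont they read 3.36, 1.36 and 10.3 RPKM, then 4.32, 2.47 and 10.4 RPKM, and in BA 2.55, 1.08 and 7.51 RPKM, then 3.88, 1.96 and 8.39 RPKM. These 3 genes were named after their values were seen, and single columns were not tested. With the 3 prefixes in 1 fit, the ribosome biogenesis members were thus called at 4 h and the replication markers not before 24 h.

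**Figure D5:**
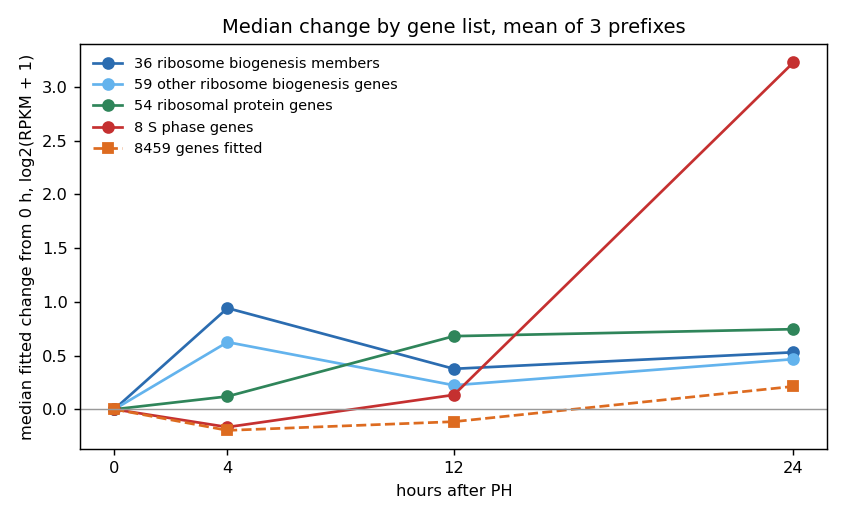
Median fitted difference in log2(RPKM + 1) from 0 h over the 3 prefixes, against hours after PH, of the 36 members, 59 further ribosome biogenesis genes, 54 ribosomal protein genes, 8 S phase markers and all 8459 genes fitted. The members' median is highest at 4 h (0.94), that of the ribosomal protein genes at 24 h (0.75) and that of the S phase markers at 24 h (3.23).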

How the data were processed

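Whole liver RNA of male Sprague Dawley rats was sequenced from TruSeq libraries for 3 title prefixes (Cont, BF, BA) at 4 times, and the authors deposited 1 table of RPKM values, each column combining 2 runs, 1 on a single rat and 1 on pooled RNA of 3 rats. The submitters' processing notes name CASAVA, Bowtie 0.12.2 and the builds rn4 and mm8 without their role, and the counter and annotation are not given in the sources used here. RPKM is scaled by library total and transcript length, which makes each value depend on the share taken by the most abundant genes. The number of reads is unknown, so no counting interval is given.

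Members were matched by symbol, and older symbols through RefSeq names of GRCr8. The members, gene lists and tests were chosen with earlier results of these data known. The 8459 genes whose 12 columns averaged 1 RPKM or more were tested as log2(RPKM + 1) with limma 3.58.1 (moderated test with a mean-variance trend, R 4.3.3) in 1 additive fit of prefix and time, with Benjamini-Hochberg adjustment over all of them and a threshold of 0.05. Each time thus has the 3 prefixes as its values, and each prefix the 4 times; the columns come from separate rats, and the residual (6 degrees of freedom) also holds differences in time course between prefixes. A fold change on this scale understates that of low genes. Comparisons of 2 single columns have no test, and counts past 2-fold were set beside those of all genes. On simulated data for 4 h against 0 h (8459 genes, 200 changed) 97% of 2-fold and 100% of 4-fold changes were found and 12 unchanged genes were called. The simulated noise was independent, of an assumed size, and held no differences in time course between prefixes. It therefore checks the code and does not give the error rate in these data.

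The genes named are FBL, NCL, NPM1, POLR1A and POLR1B, in each role class the 2 with the largest and the 1 with the smallest mean 4 h difference, the 3 highest and 3 lowest at 4 h for each pair of prefixes, MYC, UBTF, RRN3 and PCNA, and the 3 highest and 3 lowest of the further ribosome biogenesis genes. Marker lists of Kupffer, endothelial, bile duct and stellate cells were summed too, at 163 to 269, 38.7 to 63.3, 7.78 to 19.9 and 7.60 to 18.9 RPKM over the 12 columns. Alternatives were another pseudocount (0.1 RPKM), no filter, rescaling on the median gene, the other factor left out and columns left out. Motifs were counted and plots drawn with Python 3.11.15, numpy 2.4.6, pandas 2.3.3 and matplotlib 3.10.9.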

Additional observations from a re-analysis of the deposited data

Results flagged for a closer look

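The 4 h difference from 0 h had unlike signs between prefixes in 2 members, which drew attention because each prefix holds 1 column per time; the difference between prefixes was not tested. GNL3L differed by 0.15 in Cont, 0.34 in BF and -0.0025 in BA on the log2(RPKM + 1) scale. DDX56 differed by 0.22 in Cont, 0.78 in BF and -0.12 in BA. The medians over all genes were -0.19 in Cont, -0.072 in BF and -0.32 in BA, so both members were above them in every prefix. With the columns rescaled on the median gene, both members were called higher at 4 h in the fit over the 3 prefixes. In the BA column at 4 h ALB held 30.9% of the total, and the part of this in the BA values was not tested.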

How the results depend on the processing

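At 4 h against 0 h the count of 33 members called higher ranged from 24 (without the BF prefix) to 36 (columns rescaled on the median gene). Over all genes 1090 were called higher, against 600 without the BF prefix and 1531 after rescaling. The counts for BA against Cont and BF against BA were 0 in all alternatives run, and the other counts moved as follows. At 12 h 15 members were called above 0 h, against 7 with prefix left out of the fit, 9 without the BF column at 12 h and 0 to 13 with a prefix left out. Over all genes the counts in the same order were 764, against 545, 563 and 151 to 517. At 24 h 26 were called, against 2 after rescaling, 14 with prefix left out of the fit and 1 to 25 with a prefix left out. Over all genes the counts in the same order were 2587, against 874, 2017 and 625 to 2223. From 4 to 12 h 22 members fell, and 4 to 16 with a prefix left out. Over all genes 1014 were called lower, and 145 to 464 with a prefix left out. From 12 to 24 h 2 rose, against 1 with prefix left out of the fit, 1 without the BF column at 12 h and 0 to 1 with a prefix left out. Rescaling gave 0 higher and 6 lower. Over all genes 3684 were called higher, against 2955, 2670 and 994 to 2656 in the same order, and 632 after rescaling. The 1 call of BF against Cont became 0 with a pseudocount of 0.1 RPKM, without the filter, after rescaling, with time left out of the fit, without the BF column at 12 h and with any time left out. The median 4 h difference in BA was 1.06 after rescaling, against 0.80. The cause of these shifts was not tested, beyond the fewer columns where columns were left out. Over all alternatives, 113 counts and medians were classed as near the main value, 24 as weaker, 1 as reversed and 1 as moved. A count classed as near could still hold lost or gained calls, as with 24 against 33 at 4 h. A median smaller than the spread of its related medians was not classed as reversed when its sign changed. Of the values of single genes at 4 h 214 kept their direction and side of the threshold, 8 lost a call and 3 gained one. Leaving out the BA column at 4 h and adding the older symbols were chosen after seeing the data. Animals could not be paired because the columns come from separate rats, and the fit used prefix and time as blocks instead. Depth is unknown, and it limits the lowest genes most.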
